A study of Mus musculus with 24 samples.

Results

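Collagens are the structural proteins of the extracellular matrix that fibroblasts secrete, and each is a triple helix wound from chains that are encoded by separate genes. The chains fall into classes by what they build. Fibrillar chains make the cross-banded fibrils of connective tissue, FACIT chains (fibril-associated collagens with interrupted triple helices) sit on those fibrils, type IV chains make the sheet under epithelia and around vessels and muscle, and network-forming chains make open lattices. Fibroblasts of the embryo are known as a main source of type I, III, V and VI collagen.

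The genes described here were the 44 collagen chain genes among the 41710 genes of each table, chosen as every gene whose symbol is Col, a number, a and a number. They comprised 11 fibrillar, 6 basement membrane (type IV), 9 FACIT, 3 network-forming, 6 beaded filament, 2 multiplexin, 1 anchoring fibril and 4 transmembrane chains and 2 other chains. Gene expression was measured by RNA sequencing in murine embryonic fibroblasts (MEFs), either primary or immortalized with SV40 T-antigen. Each form of the cells was sequenced in 4 genotypes with 3 libraries each, which were wild-type (WT), MycKO, MlxKO and the Myc x Mlx double knockout (DKO). Myc is a transcription factor that drives growth and proliferation, and Mlx is the obligate partner of a related set of factors that respond to glucose. The comparisons ask how the loss of each factor, and of both, changed the collagen genes. All MEFs came from embryos of day 14 to 16, at least 6 of them pooled, that carried floxed Myc and/or Mlx alleles and a transgene for a Cre recombinase fused to the estrogen receptor (CreER) under the ROSA26 promoter, which is active in most cell types. Knockouts were made with 500 nM 4-hydroxytamoxifen (4OHT), and immortalized WT cells were kept without 4OHT, so that in the immortalized table exposure to 4OHT and the knockout cannot be told apart. For the sequenced primary WT cells the sources used here do not state whether 4OHT or vehicle was given. Immortalized cells were pools selected with blasticidin after lentiviral delivery of T-antigen, and they were not described as clones. The labels name no separate lines within a genotype, so that the genotype and the history of its line cannot be told apart. The p-values therefore measure only the spread between these libraries, which may be technical.

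Myc and Mlx transcripts followed the labels. Myc stood at 89.8 to 100.1 CPM (reads of a gene scaled to a common library size) in primary WT libraries and at 25.8 to 26.8 in MycKO, and Mlx at 20.5 to 26.0 in WT and 13.0 to 13.97 in MlxKO. In immortalized cells Myc stood at 9.96 to 17.2 CPM in MycKO, and Mlx at 20.5 to 25.1 in WT and 12.1 to 17.0 in MlxKO. Libraries held 15986856 to 20966163 reads on genes, so that the floor of 3 reads lay between 0.145 and 0.196 CPM. All 9 fibroblast markers were detected in every genotype of both tables. One library stood apart, namely library 4 of immortalized WT, in which 1111 of 12880 genes, 7 collagen chains among them, differed over 2-fold from both other WT libraries. In the other 23 libraries this held for 6 to 187 genes and for 0 collagen chains. Myc itself was at 48.1, 39.9 and 177 CPM in immortalized WT libraries 2, 3 and 4. Calls of immortalized chains against WT are therefore also given without that library, while the lists of other genes and the markers are given with all libraries. The tables of primary and immortalized cells were scaled separately, and no test between them was made.

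What most of these genes share is a repeat that can be read in their exons. The triple helix needs the smallest amino acid, glycine, at 1 in 3 positions, and glycine codons begin with GG. In the reference annotation, the longest unbroken run of GGN codons at 1 in 3 codons counted 216 to 344 triplets in fibrillar chains (median 338), against 32 to 113 in FACIT chains, 39 to 66 in basement membrane chains and 60 to 61 in network-forming chains. Of the inner coding exons of fibrillar chains 48.8% were exactly 54 bases long, that is 6 triplets of 9 bases, against 4.225% in basement membrane chains and 0.4281% in the other protein-coding genes. Network-forming chains had 2 coding exons each and so no inner one. The exons below are shown because they let the repeat be seen in 5 chains of 3 classes, and capitals mark the GG of each GGN codon. Positions are on GRCm39 (GENCODE M39), 5′ to 3′ on the coding strand, and Col6a1 is read from the minus strand.
Col3a1 coding exon 6 of 51, chr1:45364520-45364573: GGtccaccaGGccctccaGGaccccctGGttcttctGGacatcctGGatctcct
Col1a2 coding exon 8 of 52, chr6:4515481-4515534: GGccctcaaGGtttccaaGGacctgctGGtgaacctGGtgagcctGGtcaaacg
Col5a1 coding exon 15 of 66, chr2:27855263-27855316: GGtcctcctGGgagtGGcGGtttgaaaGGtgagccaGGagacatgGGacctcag
Col16a1 coding exon 48 of 69, chr4:129976915-129976968: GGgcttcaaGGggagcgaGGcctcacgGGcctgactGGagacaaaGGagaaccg
Col6a1 coding exon 9 of 35, chr10:76555457-76555510: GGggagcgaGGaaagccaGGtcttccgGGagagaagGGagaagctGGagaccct
Each exon opens on a GGN codon and carries 6 of them in step, and the Col5a1 exon carries a 7th, out of that step. The exon sequences have the same plan and differ at most other positions, and among the 44 chains only Col6a5 and Col6a6, both under the filter on low values given below, shared stretches of 50 bases with each other.

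Promoter windows of 300 bases (250 before to 50 after the start, RefSeq, GRCm38.p6) were at hand for 35 of the 44 chains. The window was not among those used for Col1a1, Col2a1, Col4a3, Col5a2, Col9a3, Col12a1, Col14a1, Col22a1 and Col26a1. The letters CACGTG, the E-box that Myc and Mlx partners bind, stood on either strand in 0 of the 35 windows and in 7.15% of the 32851 windows of all genes. CCAAT was in 13 collagen windows against 37.4% of all, GGGCGG in 22 against 35.7% and TATAAA in 5 against 13.6%, both strands counted. These are matches of letters only. The 250 bases before the start of Col10a1, the chain that differed most from WT in primary cells, are shown with TATAAA in capitals 32 bases before the start (GRCm38.p6, plus strand).
Col10a1, chr10:34389731-34389980: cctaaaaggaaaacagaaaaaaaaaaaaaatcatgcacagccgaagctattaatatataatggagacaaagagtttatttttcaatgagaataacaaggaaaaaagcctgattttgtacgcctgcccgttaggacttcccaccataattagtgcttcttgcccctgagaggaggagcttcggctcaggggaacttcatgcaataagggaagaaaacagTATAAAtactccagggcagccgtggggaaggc
G and C made up 41.6% of those bases.

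Of the 44 chains, 32 passed the filter on low values in primary cells (at least 1 CPM in at least 3 of 12 libraries) and 28 in immortalized cells. Those left out in primary cells were Col4a3, Col4a4, Col6a4, Col6a5, Col6a6, Col9a1, Col9a2, Col13a1, Col17a1, Col19a1, Col20a1 and Col22a1. In immortalized cells Col9a3, Col14a1, Col23a1, Col24a1, Col26a1 and Col28a1 were also left out, while Col4a3 and Col4a4 passed. Col13a1 was at 0 in all 12 immortalized libraries. Per kilobase of transcript, Col1a1 was the highest chain in both WT groups, at 2911 ± 31.6 CPM per kb in primary and 2116 ± 710.0 in immortalized WT (SD, n = 3). Col1a2 followed at 1601 ± 112 and 697 ± 81.2, then Col3a1 at 703 ± 100.1 and 539 ± 72.9. Col5a2 and Col5a1 came next in primary WT, at 415 ± 27.2 and 408 ± 21.3 CPM per kb, and these neighbours did not differ beyond their spread. Below them in primary WT stood Col4a1 at 236 ± 15.1, Col6a1 at 234 ± 3.02, Col12a1 at 221 ± 10.8 and Col10a1 at 186 ± 32.1 CPM per kb, whose spreads met. In immortalized WT the spread of Col3a1 met that of the next chain, Col5a2, at 426 ± 71.7.

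In primary cells the loss of Myc, alone or with Mlx, went with more collagen mRNA in most classes, and the loss of Mlx alone changed few chains. Summed over the 44 genes, collagen transcripts stood at 44899, 46112 and 49102 CPM in the WT libraries, 51564, 51733 and 47756 in MlxKO, 65526, 63019 and 68227 in MycKO and 65137, 64623 and 65692 in DKO. The sums of MycKO and DKO lay above every WT and MlxKO library, and their means were 1.4 and 1.39 times the WT mean. In immortalized cells the sums were 30731, 31224 and 23042 CPM in WT, 16938, 21944 and 20474 in MlxKO, 15170.2, 21834 and 20307 in MycKO and 32860.3, 27970.0 and 24443 in DKO. Under the deposited scaling the MlxKO and MycKO sums lay below all WT libraries, at 0.698 and 0.674 times the WT mean. Those of DKO overlapped WT. Scaled by library totals, the MlxKO sums overlapped WT through WT library 4. Without Col1a1, Col1a2 and Col3a1, the MycKO mean was 0.995 times the WT mean, with overlapping libraries, and the MlxKO mean 0.761 times. In bulk RNA such as this, fewer cells of a type and less RNA per cell cannot be told apart.

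Each gene was tested with limma on log2(CPM + 1), which understates the change of low genes, with a Benjamini-Hochberg adjusted p of 0.05 over all genes as threshold. In primary MycKO cells 25 of the 32 chains tested rose and 2 fell, with a median log2 fold change of 0.67 over the 32, against 20.4% of all genes tested higher and 21.9% lower and a median of 0.00021 over all genes. In primary MlxKO cells 5 rose and 1 fell (median 0.074), against 3.75% and 5.14% of all genes. In primary DKO cells 22 rose and 4 fell (median 0.45), against 24% and 25.5%. The 3 knockouts were compared with the same WT libraries. Counting both directions, the shares of all genes were 42.3%, 8.88% and 49.5% in MycKO, MlxKO and DKO. In immortalized cells 9 of the 28 chains tested rose and 9 fell in MycKO (median 0.044), against 24.4% and 23.5% of all genes. In MlxKO 3 rose and 6 fell (median -0.11), against 19.1% and 19.9%, and in DKO 8 rose and 3 fell (median 0.22), against 10.4% and 8.51%. The shares in either direction were 48%, 38.9% and 18.9% in MycKO, MlxKO and DKO. These counts include Col4a4, Col15a1 and Col25a1, which passed the filter in immortalized cells only through groups in which they were high. Without WT library 4, MycKO had 9 higher and 12 lower, MlxKO 4 and 11, and DKO 8 and 3, and no call was lost. When libraries were scaled by their totals instead, 25 rose and 2 fell in primary MycKO and 22 rose and 4 fell in primary DKO, but in immortalized MlxKO cells 5 rose and 3 fell, with the median of all genes moved by 0.16 on the log2 scale. Under that scaling the genes of the whole table split into 1853 higher and 4051 lower in primary MycKO, against 2677 and 2864 under the deposited scaling, and into 2481 and 4194 against 3146 and 3341 in primary DKO. The splits were 661 and 567 against 491 and 673 in primary MlxKO, and 3671 and 1584 against 2457 and 2557 in immortalized MlxKO.

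Large changes, with a log2 fold change of at least 1 beside the adjusted p, were fewer. In primary cells 7 chains rose and 1 fell by that much in MycKO, against 1.86% and 2.8% of all genes. In MlxKO 0 rose and 1 fell, against 0.114% and 0.29%, and in DKO 2 rose and 1 fell, against 2.53% and 3.18%. The 2 in DKO were Col8a2 and Col23a1, and Col10a1 was the chain that fell in each of the 3 knockouts. In immortalized MycKO 8 rose and 6 fell, against 8.45% and 5.88% of all genes, in MlxKO 3 and 3, against 4.45% and 2.27%, and in DKO 5 and 1, against 2.79% and 1.34%.

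**Figure D1:**
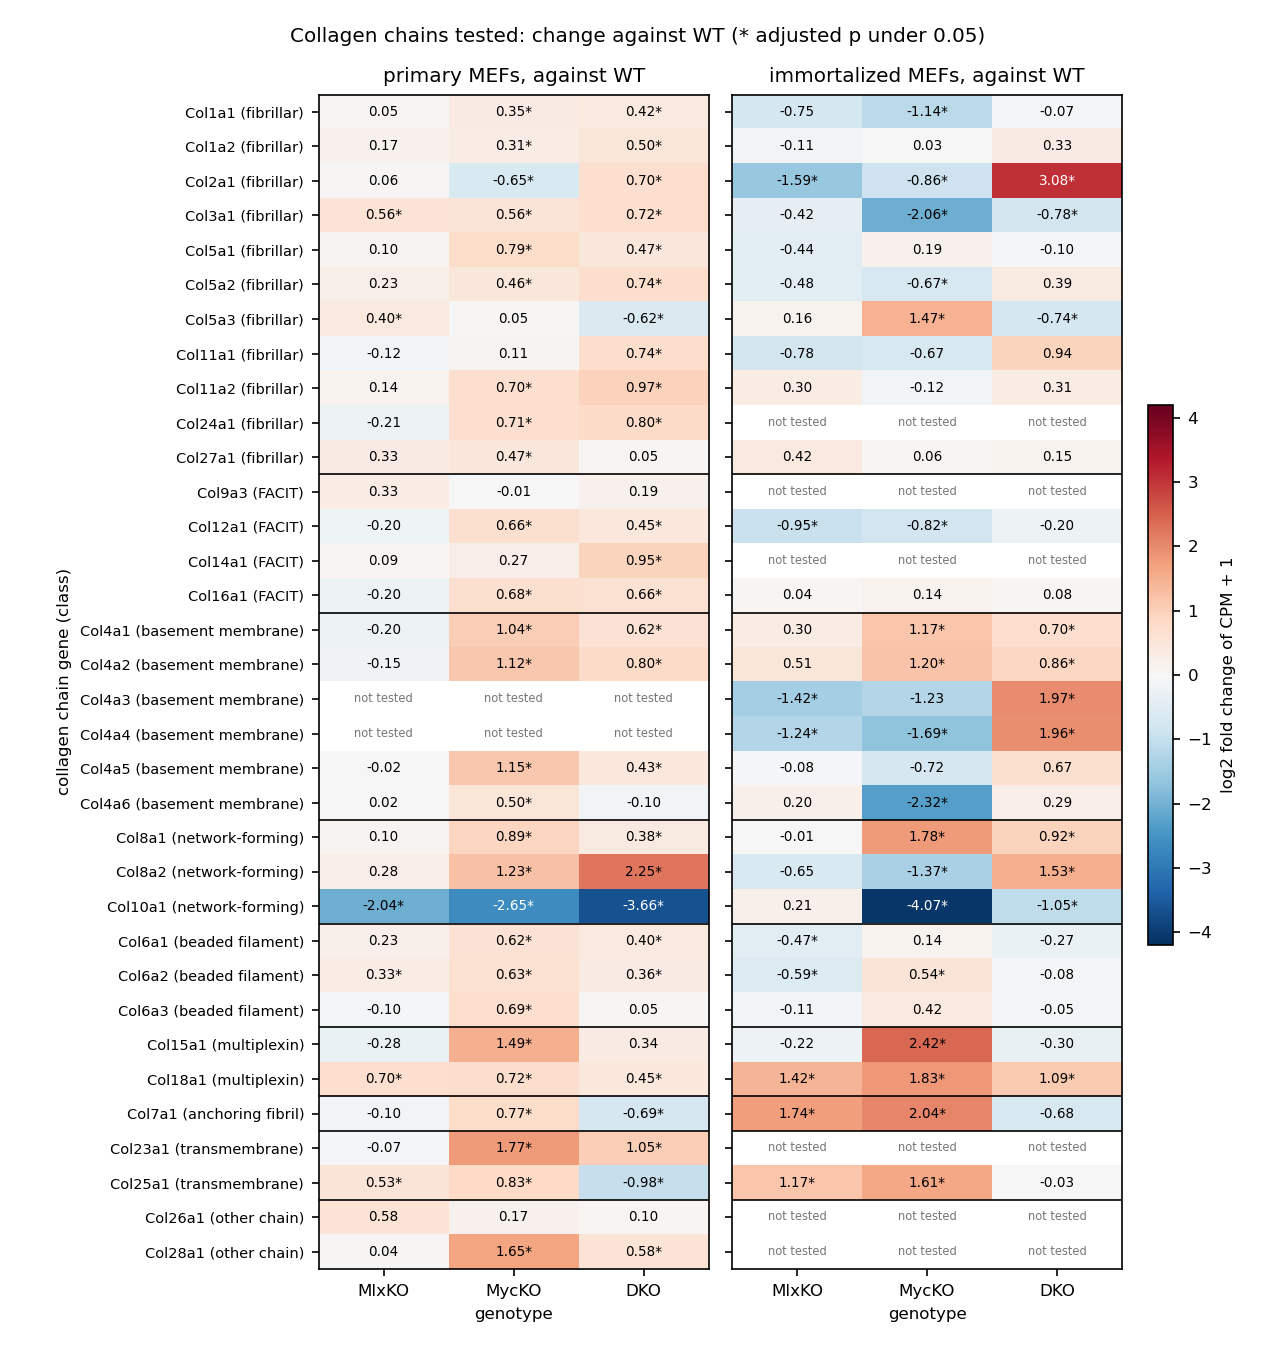
Heat map of the log2 fold change of CPM + 1 against WT for the collagen chains tested, with genes on the vertical axis grouped by class, the 3 knockouts on the horizontal axis and primary and immortalized MEFs in separate panels. Each cell gives its value, an asterisk marks an adjusted p under 0.05 (limma), and the lowest values are Col10a1 in immortalized MycKO at -4.07 and in primary DKO at -3.66.

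Among fibrillar chains of primary cells, 8 of 11 rose and 1 fell in MycKO, 2 rose in MlxKO, and 9 rose and 1 fell in DKO, where 20.4% and 21.9%, 3.75% and 5.14%, and 24% and 25.5% of all genes were higher and lower. The type I chains, which make the bulk of the fibrils in skin, bone and tendon, rose in MycKO and DKO. Col1a1 (ENSMUSG00000001506, chr11:94827050-94843868 on GRCm39, as for the genes below) stood at 17134, 17170.2 and 17476 CPM in WT, 18658, 18307 and 16784 in MlxKO, 21375, 21987 and 22651 in MycKO and 22892, 23695 and 22784 in DKO. Every MycKO and DKO library was above every WT library, with log2 fold changes of 0.35 ± 0.085 (SE) and 0.42 ± 0.085 (adjusted p = 0.00316 and 5.82e-04, limma), while MlxKO overlapped WT (0.052 ± 0.085, adjusted p = 0.761). Its partner Col1a2 (ENSMUSG00000029661, chr6:4504814-4541555) was at 8179.9, 8286 and 9272 CPM in WT, 9528, 10008 and 9388 in MlxKO, 10681, 10142 and 11083 in MycKO and 12144, 11968 and 12309 in DKO. The MycKO and DKO libraries again lay above WT, with log2 fold changes of 0.31 ± 0.08 and 0.50 ± 0.08 (limma, adjusted p = 0.00469 and 6.59e-05).

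Type III collagen, which mixes with type I in skin and vessel walls, rose in all 3 primary knockouts. Col3a1 (ENSMUSG00000026043, chr1:45350698-45395840) stood at 3469, 3724 and 4535 CPM in WT, 5618, 5939 and 5605 in MlxKO, 5859, 5409 and 5878 in MycKO and 6402, 5969 and 6846 in DKO. No library of a knockout overlapped WT, and log2 fold changes for MlxKO, MycKO and DKO came to 0.56 ± 0.093, 0.56 ± 0.093 and 0.72 ± 0.093 (adjusted p = 0.00128, 1.40e-04 and 8.39e-06, limma). Type V collagen lies in the core of type I fibrils and limits their width. Col5a1 was at 3248, 3478 and 3602 CPM in WT, 3997, 3771 and 3354 in MlxKO, 6098, 5453 and 6268 in MycKO and 4754, 4699 and 4822 in DKO. It was highest in MycKO (0.79 ± 0.081, adjusted p = 1.04e-06, limma), and DKO libraries lay between WT and MycKO (0.47 ± 0.081 against WT, adjusted p = 1.49e-04). Col5a2, by contrast, was highest in DKO, at 2983, 3048 and 3367 CPM in WT, 3576, 3784 and 3668 in MlxKO, 4431, 4005 and 4509 in MycKO and 5285, 5139.8 and 5231 in DKO. Its log2 fold changes were 0.46 ± 0.072 in MycKO and 0.74 ± 0.072 in DKO (adjusted p = 7.27e-05 and 3.92e-07, limma). The remaining type V chain, Col5a3, went another way, with 204, 207 and 216 CPM in WT, 306, 287 and 240.0 in MlxKO, 225, 184 and 246 in MycKO and 131, 134 and 143 in DKO. It rose in MlxKO (0.40 ± 0.10, adjusted p = 0.0144) and fell in DKO (-0.62 ± 0.10, adjusted p = 5.69e-05), where all 3 libraries lay below WT, and in MycKO its libraries overlapped WT.

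Type II and XI collagen form the thin fibrils of cartilage. In primary cells Col2a1 (ENSMUSG00000022483, chr15:97873483-97902689) stood at 56.6, 70.0 and 69.3 CPM in WT, 70.7, 71.0 and 62.2 in MlxKO, 37.6, 47.0 and 39.4 in MycKO and 108, 110.5 and 99.98 in DKO. It fell in MycKO (-0.65 ± 0.10, adjusted p = 4.24e-05, limma) and rose in DKO (0.70 ± 0.10, adjusted p = 1.55e-05), with no overlap of either group with WT. Col11a1 was at 252, 279 and 295 CPM in WT, 256, 262 and 242 in MlxKO, 293, 293 and 302 in MycKO and 465, 460.0 and 455 in DKO. Only its DKO libraries passed the test against WT (0.74 ± 0.061, adjusted p = 6.54e-08), and those of MycKO overlapped WT (0.11 ± 0.061, adjusted p = 0.174). Of the low fibrillar chains, Col11a2 rose by 0.70 and 0.97 and Col24a1 by 0.71 and 0.80 in MycKO and DKO, and Col27a1 rose in MycKO by 0.47, all on the log2 scale. Summed cartilage markers stood at 51.8 to 54.9 CPM in WT, 59.5 to 63.1 in MycKO and 48.3 to 58.8 in DKO, with Snorc at 0 in the libraries of all 4 genotypes and of 5 tested markers 1 higher and 2 lower in MycKO. Of these 5 markers, 1 was higher (1.62 on the log2 scale) and 0 lower in DKO, and 0 passed the test in MlxKO. Their part in the Col2a1 values was not tested.

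**Figure D2:**
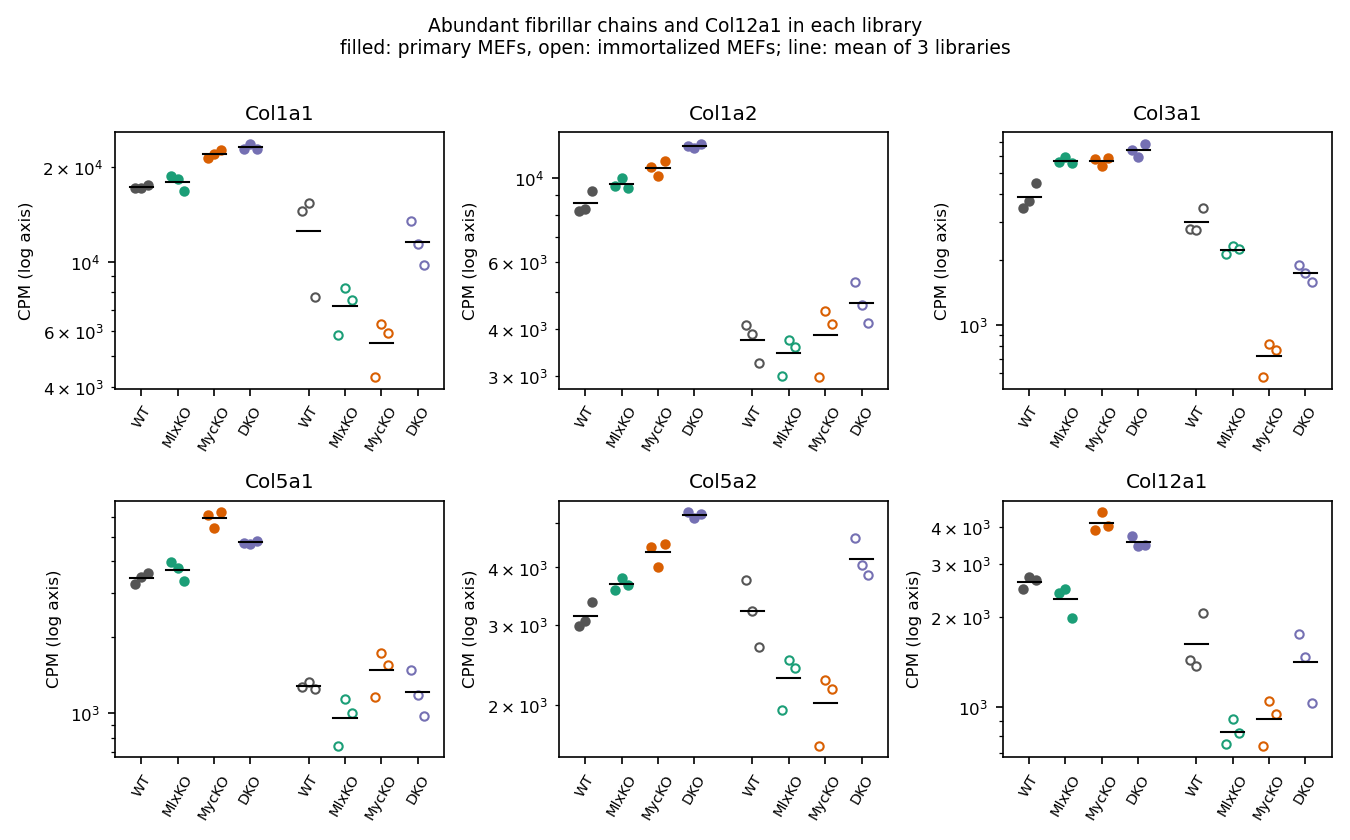
CPM on a log axis of 5 fibrillar chains and of Col12a1 in each of 24 libraries, with the 4 genotypes of primary MEFs (filled points) and immortalized MEFs (open points) along the horizontal axis and a line at the mean of 3 libraries. In primary cells all 6 genes lie above WT in the MycKO and DKO libraries, whereas Col3a1 in immortalized MycKO lies at 575, 819 and 766 CPM, below every other library, and the tables were scaled separately.

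In immortalized cells 1 of 10 fibrillar chains rose and 4 fell in MycKO, where 48% of all genes were called in either direction, so that the share called was near that of all genes. In MlxKO 1 fell, against 38.9%, and in DKO 1 rose and 2 fell, against 18.9%. Col3a1 stood at 2779.6, 2745 and 3464 CPM in WT, 2121, 2318 and 2247 in MlxKO, 575, 819 and 766 in MycKO and 1884, 1739 and 1581 in DKO. The MycKO libraries lay below all others, 4.16-fold below WT (-2.06 ± 0.16, adjusted p = 1.60e-06, limma), and DKO was lower by a smaller step (-0.78 ± 0.16, adjusted p = 0.00671). Col1a1 was at 14534, 15401 and 7714 CPM in WT, 5839, 8248 and 7552 in MlxKO, 4291, 6356 and 5925 in MycKO and 13516, 11388 and 9736 in DKO. The last WT value, from library 4, lay within the MlxKO range and above the MycKO one, and the fall in MycKO (-1.14 ± 0.29, adjusted p = 0.0075) was -1.46 without that library. In MlxKO the difference from WT passed the test only without it (-1.07, adjusted p = 0.00153, against -0.75 and 0.0606 with it). Col1a2, in the same trimer, was at 4088, 3872 and 3249.6 CPM in WT, 3016, 3750.4 and 3589 in MlxKO, 2986, 4456 and 4123 in MycKO and 5321, 4616 and 4148 in DKO. It passed the test in no knockout (-0.11, 0.031 and 0.33 on the log2 scale in MlxKO, MycKO and DKO).

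Among the type V chains of immortalized cells, Col5a2 stood at 3759, 3218 and 2676 CPM in WT, 1952, 2513 and 2409 in MlxKO, 1629, 2269.7 and 2169.9 in MycKO and 4645, 4049 and 3842 in DKO. It fell in MycKO (-0.67 ± 0.19, adjusted p = 0.012, limma), and in MlxKO only without WT library 4 (-0.61, adjusted p = 0.0115). Col5a1 was at 1271, 1327 and 1251 CPM in WT, 745, 1142 and 1001 in MlxKO, 1160.3, 1738 and 1558 in MycKO and 1484, 1186 and 979 in DKO and passed no test against WT. Col5a3 was at 51.5, 51.9 and 46.4 CPM in WT, 42.8, 68.1 and 60.1 in MlxKO, 118, 164 and 142 in MycKO and 38.2, 26.3 and 25.6 in DKO. It rose in MycKO (1.47 ± 0.19, adjusted p = 7.96e-05) and fell in DKO (-0.74 ± 0.19, adjusted p = 0.0204), so that in DKO cells it was lower than WT in both tables. The cartilage chain Col2a1 had the widest span of the fibrillar class, at 4.1, 4.16 and 1.46 CPM in WT, 0.29, 0.4 and 0.306 in MlxKO, 0.613, 1.87 and 1.35 in MycKO and 39.3, 31.3 and 28.8 in DKO. DKO libraries lay above every other library (3.08 ± 0.28, adjusted p = 3.01e-05), MlxKO libraries lay below WT (-1.59 ± 0.28, adjusted p = 0.00158), and MycKO, although called lower (-0.86 ± 0.28, adjusted p = 0.0259), overlapped WT. Col11a1 was at 158, 138 and 57.4 CPM in WT, 51.9, 70.5 and 66.0 in MlxKO, 49.2, 82.9 and 75.7 in MycKO and 241, 216 and 171 in DKO. With all libraries it passed the test in no knockout, and without WT library 4 it was lower in MlxKO (-1.23, adjusted p = 3.44e-04) and MycKO (-1.11, adjusted p = 4.33e-04). The cartilage markers moved as well: summed over the list they stood at 157, 169 and 70.2 CPM in WT, 65.9, 66.4 and 67.8 in MlxKO, 21.4, 25.2 and 23.2 in MycKO and 136, 131 and 136 in DKO, with 4 of 5 tested markers lower in MycKO than in WT and Snorc and Ucma at 0 in every genotype. Of these 5 markers, 3 were lower in MlxKO, and 1 was higher and 1 lower in DKO. Their part in the changes of Col2a1 and Col11a1 was not tested.

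FACIT chains lie on the surface of fibrils. In primary cells 2 of the 4 tested rose in MycKO, 0 passed the test in MlxKO and 3 rose in DKO, against 42.3%, 8.88% and 49.5% of all genes called in either direction, and with 4 genes these shares set nothing apart. Col12a1, the main FACIT chain here and one that binds type I fibrils in tendon and skin, was at 2474, 2723 and 2648 CPM in WT, 2413, 2482 and 1979 in MlxKO, 3902, 4476 and 4022 in MycKO and 3741, 3463 and 3490.0 in DKO. Levels rose in MycKO (0.66 ± 0.087, adjusted p = 1.35e-05, limma) and DKO (0.45 ± 0.087, adjusted p = 4.40e-04), with no overlap with WT. Col16a1 followed the same order at a lower level, at 146, 156 and 154 CPM in WT, 136, 137 and 125 in MlxKO, 280.0, 185 and 281 in MycKO and 233, 225 and 265 in DKO. Its log2 fold changes were 0.68 ± 0.12 and 0.66 ± 0.12 in MycKO and DKO (adjusted p = 2.07e-04 and 2.31e-04). Col14a1, a FACIT chain of differentiated connective tissue, rose only in DKO, from 16.4, 24.0 and 29.0 CPM in WT to 44.6, 41.7 and 47.0 (0.95 ± 0.14, adjusted p = 3.56e-05). In immortalized cells Col12a1 went down in 2 knockouts, at 1436, 1368 and 2060.0 CPM in WT, 754, 911 and 819 in MlxKO, 743, 1047 and 949 in MycKO and 1752, 1473 and 1029 in DKO. Both MlxKO and MycKO libraries lay below WT (-0.95 ± 0.22 and -0.82 ± 0.22, adjusted p = 0.0055 and 0.0086, limma), whereas DKO overlapped WT. Col16a1 passed no test there, at 90.7, 112 and 66.8 CPM in WT, 67.0, 114 and 95.9 in MlxKO, 81.2, 111 and 102 in MycKO and 122, 82.3 and 79.5 in DKO. The cartilage FACIT chains Col9a1 and Col9a2 and the chains Col19a1, Col20a1 and Col22a1 stayed under the filter in both tables, and Col9a1 stood highest in immortalized DKO, at 0.796, 1.36 and 0.828 CPM.

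Of the type IV chains, all 4 tested in primary cells rose in MycKO and 3 in DKO, and in immortalized cells 2 of 6 rose and 2 fell in MycKO, 2 fell in MlxKO and 4 rose in DKO. Of all genes, 42.3% and 49.5% were called in primary MycKO and DKO, and 48%, 38.9% and 18.9% in immortalized MycKO, MlxKO and DKO. They pair by position: Col4a1 with Col4a2 on chromosome 8, Col4a3 with Col4a4 on chromosome 1 and Col4a5 with Col4a6 on chromosome X lie head to head on opposite strands. On GRCm39 the gene bodies of the first pair overlapped by 356 bases and those of the second by 159, and Col4a5 and Col4a6 lay 1281 bases apart. Col4a1 and Col4a2 make the common basement membrane trimer. In primary cells Col4a1 (ENSMUSG00000031502, chr8:11248423-11362826) stood at 1469, 1550.5 and 1668 CPM in WT, 1424, 1348 and 1292 in MlxKO, 3381, 2756 and 3564 in MycKO and 2402, 2331 and 2474 in DKO. Col4a2 (ENSMUSG00000031503, chr8:11362471-11499287) was at 1084, 1138 and 1164 CPM in WT, 1072, 1002 and 984 in MlxKO, 2646, 2013 and 2749 in MycKO and 1948, 1920.5 and 2028 in DKO. MycKO was 2.07-fold and 2.19-fold above WT for the pair (log2 fold changes 1.04 ± 0.086 and 1.12 ± 0.092, adjusted p = 9.86e-08 and 9.86e-08, limma). DKO lay above WT too (0.62 and 0.80 on the log2 scale, adjusted p = 1.67e-05 and 2.38e-06), and MlxKO passed the test for neither.

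Immortalized cells held Col4a1 at 429.6, 432 and 363 CPM in WT, 399.5, 590.2 and 535 in MlxKO, 756, 1076 and 955 in MycKO and 815, 633 and 556 in DKO. Col4a2 was at 253, 271 and 225 CPM in WT, 279, 421 and 379 in MlxKO, 441, 689 and 619.7 in MycKO and 599, 412 and 376 in DKO. Both rose in MycKO (1.17 ± 0.19 and 1.20 ± 0.21, adjusted p = 3.53e-04 and 7.19e-04, limma) and in DKO (0.70 ± 0.19 and 0.86 ± 0.21, adjusted p = 0.0231 and 0.0158), with no library overlapping WT. Col4a3 and Col4a4, which build the specialised membrane of the kidney filter with Col4a5, did not pass the filter in primary cells, where WT libraries held 0.564, 0.597 and 0.818 CPM of Col4a3 and 0.339, 0.923 and 0.877 CPM of Col4a4. In immortalized cells Col4a3 (ENSMUSG00000079465, chr1:82564642-82699780) stood at 8.96, 4.44 and 0.426 CPM in WT, 0.484, 0.851 and 0.459 in MlxKO, 0.409, 0.934 and 1.18 in MycKO and 18.6, 16.01 and 13.0 in DKO. Col4a4 (ENSMUSG00000067158, chr1:82426144-82564800) stood at 4.39, 3.61 and 0.67 CPM in WT, 0.532, 0.651 and 0.255 in MlxKO, 0.0511, 0.11 and 0.0563 in MycKO and 13.1, 14.4 and 10.2 in DKO. For both genes every DKO library lay above every WT library, and WT library 4 lay far below the other two. Col4a4 passed the filter only with its high DKO libraries counted. In DKO the log2 fold changes came to 1.97 ± 0.51 and 1.96 ± 0.34 (limma, adjusted p = 0.0199 and 0.00278), and 1.18 and 1.43 without that library (adjusted p = 0.00489 and 9.92e-05). Both fell in MlxKO (-1.42 and -1.24, adjusted p = 0.0433 and 0.0147, limma), although every MlxKO library of Col4a3 lay above WT library 4. In MycKO Col4a4 was lower (-1.69, adjusted p = 0.00181), with all 3 libraries under the floor of 3 reads, and Col4a3 was lower only without WT library 4 (-2.02, adjusted p = 1.98e-05).

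The last pair lies on chromosome X. Col4a5 (ENSMUSG00000031274, chrX:140258354-140472231) was at 125, 127 and 129.8 CPM in WT, 131, 127 and 119 in MlxKO, 274, 279.8 and 295 in MycKO and 174, 167 and 173 in DKO in primary cells. It rose in MycKO (1.15 ± 0.057, adjusted p = 7.28e-10, limma) and less in DKO (0.43 ± 0.057, adjusted p = 1.14e-05), without overlap. Immortalized cells held Col4a5 at 258, 235 and 83.5 CPM in WT, 154, 175 and 157 in MlxKO, 85.4, 119 and 111 in MycKO and 304, 271 and 247 in DKO. With all libraries no knockout passed the test, and without WT library 4 it was lower in MycKO (-1.23, adjusted p = 5.99e-06) and MlxKO (-0.60, adjusted p = 0.0034). Col4a6, its neighbour, was low, at 3.72, 4.29 and 4.38 CPM in WT, 3.89, 4.84 and 3.95 in MlxKO, 6.43, 5.69 and 6.68 in MycKO and 4.34, 3.43 and 3.57 in DKO in primary and 12.9, 15.4 and 3.1 CPM in WT, 11.4, 10.2 and 9.29 in MlxKO, 0.92, 1.32 and 0.675 in MycKO and 14.6, 9.9 and 9.0 in DKO in immortalized cells. It rose in primary MycKO (0.50 ± 0.13, adjusted p = 0.00543) and fell in immortalized MycKO (-2.32 ± 0.40, adjusted p = 6.53e-04), in each case without overlap with WT.

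**Figure D3:**
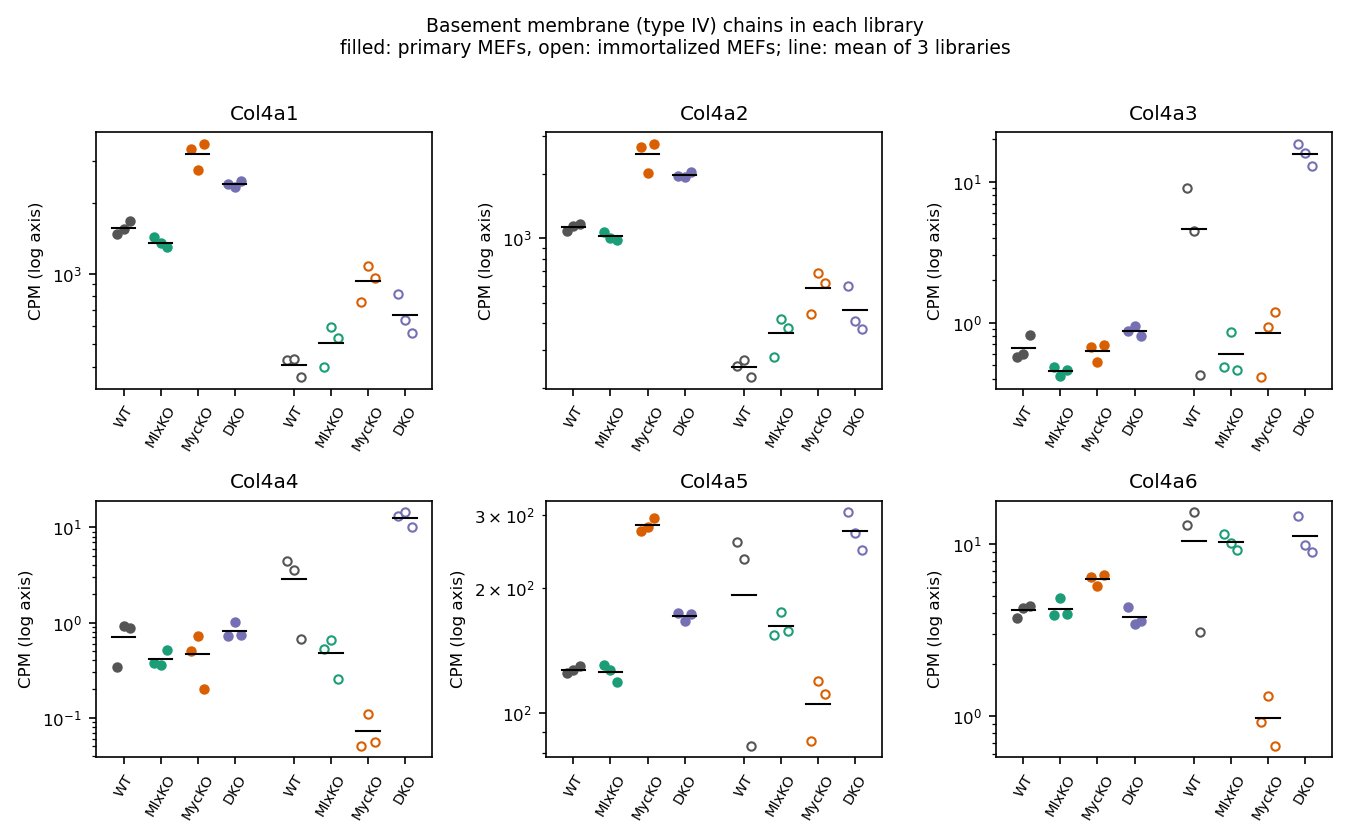
CPM on a log axis of the 6 type IV chains in each of 24 libraries, with genotypes along the horizontal axis, filled points for primary and open points for immortalized MEFs and a line at the mean of 3 libraries. Col4a1 and Col4a2 lie above WT in MycKO and DKO of both tables, while Col4a3 and Col4a4, not tested in primary cells, are highest in immortalized DKO, and the tables were scaled separately.

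Among network-forming chains, Col10a1 gave the largest fall of any collagen chain in both tables. Col10a1, the short-chain collagen of hypertrophic cartilage, was among the 10 highest chains per kilobase in primary WT. In primary cells Col10a1 (ENSMUSG00000039462, chr10:34265971-34273081) stood at 540.0, 511 and 698 CPM in WT, 145, 139 and 136 in MlxKO, 89.7, 89.3 and 93.7 in MycKO and 45.8, 46.3 and 42.3 in DKO. The 4 genotypes did not overlap and fell in the order WT, MlxKO, MycKO, DKO, 4.17-fold, 6.41-fold and 13.0-fold below WT (log2 fold changes -2.04 ± 0.089, -2.65 ± 0.089 and -3.66 ± 0.089, adjusted p = 3.99e-10, 9.05e-12 and 1.05e-13, limma). It was the only collagen chain that passed the test below WT in primary MlxKO cells. Immortalized cells held Col10a1 at 64.2, 102 and 144 CPM in WT, 137, 102 and 104 in MlxKO, 4.5, 5.22 and 4.95 in MycKO and 48.4, 43.1 and 49.1 in DKO. MlxKO overlapped WT (0.21, adjusted p = 0.49), and without WT library 4 it was called higher there (0.48, adjusted p = 0.0387). MycKO was 21.1-fold lower (-4.07 ± 0.23, adjusted p = 9.72e-08) and DKO 2.2-fold lower (-1.05 ± 0.23, adjusted p = 0.00849), so that DKO lay between MycKO and WT. Col10a1 lies inside Nt5dc1, a gene on the opposite strand, and 20.8% of its exon bases overlap exons of that gene. The strand setting of the counting is not given in the sources used here. Nt5dc1 itself stood at 8.58 to 11.3 CPM in primary WT and 7.34 to 10.9 in primary DKO, and at 22.9 to 28.9 and 9.2 to 11.5 in immortalized WT and MycKO. Of the markers of hypertrophic cartilage and bone, Bglap was at 0 in primary MlxKO, MycKO and DKO, and Ibsp was at 0 in primary MlxKO. The summed list stood at 2648 to 2959 CPM in primary WT, 2335 to 2869 in MlxKO, 1755 to 1997 in MycKO and 2476 to 2577 in DKO. In immortalized cells it stood at 978 to 2427 CPM in WT, 913 to 1111 in MlxKO, 2125 to 2529.6 in MycKO and 824 to 895 in DKO. Of the 4 markers tested there, 1 was higher in MycKO, 1 higher in MlxKO and 1 lower in DKO. Of the 9 markers in that list only 2 were tested in primary cells. In primary MycKO 1 of them was higher and 1 lower than WT (0.94 and -0.63 on the log2 scale). In primary DKO 1 was higher and 0 lower, and in primary MlxKO 0 passed the test. The part of such cells in the Col10a1 values was not tested.

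Type VIII chains, which make the hexagonal lattice under the corneal endothelium and in vessel walls, differed from WT in both tables. Col8a1 was at 425, 443 and 547 CPM in WT, 506, 530.4 and 476 in MlxKO, 837, 926 and 857 in MycKO and 638, 618 and 580.1 in DKO in primary cells. This chain rose in MycKO (0.89 ± 0.083, adjusted p = 3.58e-07, limma) and in DKO (0.38 ± 0.083, adjusted p = 0.00108). Col8a2 was at 5.53, 6.35 and 9.7 CPM in WT, 9.33, 8.67 and 8.16 in MlxKO, 20.3, 13.1 and 21.1 in MycKO and 38.0, 32.9 and 41.1 in DKO. It rose in both (1.23 ± 0.18 and 2.25 ± 0.18, adjusted p = 3.28e-05 and 3.95e-08) and stood higher in every DKO than in every MycKO library (1.02 ± 0.18, adjusted p = 4.83e-04), whereas Col8a1 was lower in DKO than in MycKO (-0.51 ± 0.083, adjusted p = 2.48e-04). In immortalized cells Col8a1 was at 195, 130.1 and 261 CPM in WT, 207, 170.4 and 184 in MlxKO, 582, 671 and 696 in MycKO and 348, 372 and 350.5 in DKO. Again it rose in MycKO (1.78 ± 0.20, adjusted p = 2.26e-05) and DKO (0.92 ± 0.20, adjusted p = 0.00762), with no overlap with WT. Col8a2 was at 12.9, 12.0 and 5.84 CPM in WT, 5.61, 6.11 and 5.77 in MlxKO, 2.35, 4.28 and 3.04 in MycKO and 40.0, 24.4 and 27.7 in DKO. It fell in MycKO (-1.37 ± 0.27, adjusted p = 0.00152) and rose in DKO (1.53 ± 0.27, adjusted p = 0.0029), and without WT library 4 it was also lower in MlxKO (-0.98, adjusted p = 0.00211, against -0.65 and 0.0731 with it).

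**Figure D4:**
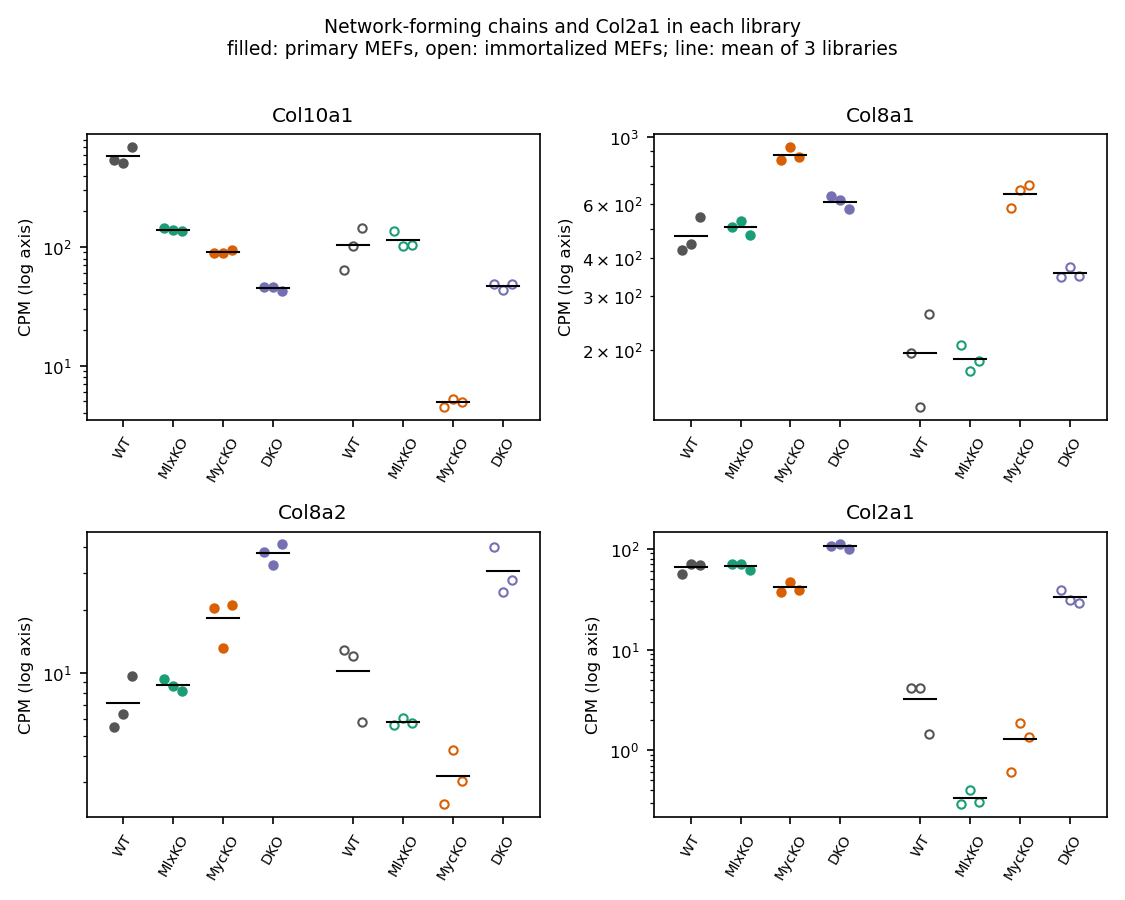
CPM on a log axis of the 3 network-forming chains and of Col2a1 in each of 24 libraries, with genotypes along the horizontal axis, filled points for primary and open points for immortalized MEFs and a line at the mean of 3 libraries. Col10a1 falls through the 4 primary genotypes without overlap and lies at 4.5, 5.22 and 4.95 CPM in immortalized MycKO, and Col2a1 is highest in the DKO libraries of each table, which were scaled separately.

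The beaded filaments of type VI collagen surround most connective tissue cells. In primary MycKO cells all 3 main chains rose, each above every WT library. Col6a1 stood at 951, 954 and 974 CPM in WT, 1197, 1098 and 1078 in MlxKO, 1507, 1334 and 1587 in MycKO and 1238, 1222 and 1344 in DKO. Col6a2 stood at 657, 671 and 700.2 CPM in WT, 894, 812 and 839.5 in MlxKO, 1102, 929.7 and 1129 in MycKO and 859, 831 and 910.0 in DKO. Col6a3 was at 1158, 1205 and 1233 CPM in WT, 1196, 1208 and 974 in MlxKO, 1851, 1983 and 1992 in MycKO and 1269.7, 1225 and 1239 in DKO. The log2 fold changes in MycKO were 0.62 ± 0.071, 0.63 ± 0.073 and 0.69 ± 0.076 (adjusted p = 3.31e-06, 3.43e-06 and 1.93e-06, limma). In DKO Col6a1 and Col6a2 rose (0.40 and 0.36, adjusted p = 1.90e-04 and 6.82e-04), while Col6a3 overlapped WT (0.054, adjusted p = 0.582), and Col6a2 also rose in MlxKO (0.33, adjusted p = 0.0096). In immortalized cells Col6a1 was at 528, 742 and 493 CPM in WT, 414, 425 and 414 in MlxKO, 551, 706 and 663 in MycKO and 523, 467 and 456 in DKO. Col6a2 was at 312, 458 and 288 CPM in WT, 215, 247 and 229 in MlxKO, 451, 541 and 523 in MycKO and 370.1, 320.1 and 294 in DKO. Col6a3 stood at 416, 508 and 524 CPM in WT, 413, 471 and 449 in MlxKO, 493, 755 and 712 in MycKO and 595, 482 and 349.6 in DKO. Col6a1 and Col6a2 fell in MlxKO (-0.47 and -0.59, adjusted p = 0.0293 and 0.0147) and Col6a2 rose in MycKO (0.54, adjusted p = 0.0163) with overlapping libraries. Col6a3 passed no test there. The chains Col6a4, Col6a5 and Col6a6 were under the filter throughout.

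Multiplexins are proteoglycan-like collagens of basement membrane zones, and Col18a1 is the source of endostatin. Col18a1 rose in all 6 comparisons with WT. It stood at 112, 111 and 106 CPM in WT, 187, 179 and 172 in MlxKO, 203, 141 and 210.0 in MycKO and 148, 138 and 166 in DKO in primary cells and at 42.7, 44.1 and 22.8 CPM in WT, 74.8, 112 and 104 in MlxKO, 111, 142 and 129 in MycKO and 99.4, 71.8 and 61.2 in DKO in immortalized cells. The log2 fold changes in MlxKO, MycKO and DKO were 0.70 ± 0.11, 0.72 ± 0.11 and 0.45 ± 0.11 in primary and 1.42 ± 0.25, 1.83 ± 0.25 and 1.09 ± 0.25 in immortalized cells (highest adjusted p = 0.0113, limma), without overlap with WT. On the opposite strand its exons overlap Slc19a1 over 12.7% of their bases. Col15a1 rose in MycKO of both tables, and in neither DKO nor MlxKO did it pass the test. It was at 12.2, 17.4 and 19.0 CPM in WT, 16.3, 13.6 and 9.65 in MlxKO, 49.7, 40.7 and 49.8 in MycKO and 21.0, 20.3 and 19.9 in DKO in primary and 0.176, 1.11 and 0.183 CPM in WT, 0.145, 0.35 and 0.204 in MlxKO, 6.24, 6.86 and 6.92 in MycKO and 0.341, 0.17 and 0 in DKO in immortalized cells. MycKO libraries lay above all others in both tables (1.49 ± 0.16 and 2.42 ± 0.22, adjusted p = 1.92e-06 and 5.71e-06).

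Col7a1 forms the anchoring fibrils that hold epidermis to dermis. In primary cells it was at 142, 144 and 124 CPM in WT, 131, 124 and 127 in MlxKO, 242, 205 and 254 in MycKO and 79.4, 82.3 and 91.1 in DKO. It rose in MycKO (0.77 ± 0.083, adjusted p = 1.78e-06, limma) and fell in DKO (-0.69 ± 0.083, adjusted p = 3.83e-06), in both without overlap with WT. Immortalized cells held Col7a1 at 6.5, 5.1 and 22.1 CPM in WT, 19.0, 49.0 and 38.6 in MlxKO, 31.4, 45.4 and 47.5 in MycKO and 5.63, 6.05 and 4.47 in DKO. It rose in MlxKO (1.74 ± 0.44, adjusted p = 0.00905) and MycKO (2.04 ± 0.44, adjusted p = 0.00256), and the WT value of library 4 reached the MlxKO range. Among transmembrane chains, Col25a1 was low, at 1.92, 3.1 and 2.75 CPM in WT, 4.64, 4.55 and 3.34 in MlxKO, 5.77, 5.56 and 4.68 in MycKO and 0.818, 0.687 and 0.921 in DKO in primary and 0, 0.111 and 0.122 CPM in WT, 1.5, 1.25 and 1.53 in MlxKO, 1.89, 2.64 and 2.36 in MycKO and 0.0569, 0.113 and 0 in DKO in immortalized cells. In primary cells it rose in MlxKO and MycKO (0.53 and 0.83, adjusted p = 0.0486 and 5.28e-04) and fell in DKO (-0.98, adjusted p = 9.67e-05). In immortalized cells it rose in MlxKO and MycKO (1.17 and 1.61, adjusted p = 3.10e-04 and 6.70e-06), while every WT and DKO library was under the floor of 3 reads, so that these fitted values depend on the added 1 CPM. Col25a1 passed the filter there only through MlxKO and MycKO, the groups in which it was high. Col23a1, another transmembrane chain, was at 2.99, 2.61 and 2.22 CPM in WT, 2.08, 2.57 and 2.67 in MlxKO, 11.1, 10.1 and 12.7 in MycKO and 5.88, 5.76 and 7.83 in DKO in primary cells. It rose in MycKO and DKO (1.77 and 1.05, adjusted p = 8.90e-08 and 1.63e-05). Col28a1, a chain found around peripheral nerve, was at 4.29, 5.87 and 6.14 CPM in WT, 6.77, 5.44 and 4.67 in MlxKO, 18.8, 19.2 and 19.1 in MycKO and 7.51, 8.45 and 9.68 in DKO in primary cells. Its MycKO libraries lay above all others (1.65 ± 0.14, adjusted p = 1.58e-07), and DKO rose less (0.58 ± 0.14, adjusted p = 0.00284).

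Chains of a trimer did not always keep their proportion. Taken per kilobase, the ratio of Col1a1 to Col1a2 was 1.82 ± 0.104 in primary WT and 1.87 ± 0.0783 in MycKO (SD, n = 3), and these overlapped. In immortalized cells it was 2.98 ± 0.751 in WT, 1.88 ± 0.12 in MlxKO, 1.3 ± 0.0056 in MycKO and 2.22 ± 0.0882 in DKO, so that MycKO held the least Col1a1 for its Col1a2. The ratio of Col3a1 to Col1a1, chains of type III and type I rather than of a shared trimer, was 0.204, 0.19 and 0.479 in the immortalized WT libraries. Library 4 gave the last value, and MycKO stood at 0.143, 0.137 and 0.138, below all 3. DKO, at 0.149, 0.163 and 0.173, also lay below all 3, while MlxKO, at 0.387, 0.3 and 0.317, lay within the WT range. For Col5a1 to Col5a2 the ratio was 0.984 ± 0.0329 in primary WT, 1.23 ± 0.0128 in MycKO and 0.815 ± 0.01 in DKO, without overlap. MlxKO, at 0.903 ± 0.0915, overlapped WT. For Col4a1 to Col4a2 it was 1.41 ± 0.0433 in primary WT, 1.35 ± 0.0163 in MlxKO, 1.34 ± 0.0493 in MycKO and 1.25 ± 0.0101 in DKO, with MlxKO and DKO below all WT libraries. In immortalized cells it was 1.67 ± 0.0565 in WT, 1.44 ± 0.016 in MlxKO, 1.64 ± 0.0969 in MycKO and 1.49 ± 0.0921 in DKO, again with MlxKO and DKO below all WT libraries. Col8a1 to Col8a2 spanned the widest range of the pairs computed, from 10.4 ± 2.83 in immortalized DKO to 180.1 ± 40.9 in immortalized MycKO. With 3 libraries against 3, an exact permutation test cannot go below p = 0.1, and none is given for these ratios.

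The call of each immortalized chain against WT was also made without WT library 4, and the log2 fold changes of the chains that passed then were as follows (limma, Benjamini-Hochberg). In MycKO the lower chains were Col10a1 -3.80, Col4a6 -2.95, Col4a4 -2.22, Col4a3 -2.02, Col3a1 -1.95, Col8a2 -1.70, Col1a1 -1.46, Col4a5 -1.23, Col2a1 -1.21, Col11a1 -1.11, Col5a2 -0.80 and Col12a1 -0.63. Higher in MycKO were Col6a2 0.41, Col4a1 1.09, Col4a2 1.13, Col5a3 1.42, Col18a1 1.53, Col25a1 1.64, Col8a1 2.02, Col15a1 2.28 and Col7a1 2.63. In MlxKO the lower chains were Col4a3 -2.21, Col2a1 -1.95, Col4a4 -1.76, Col11a1 -1.23, Col1a1 -1.07, Col8a2 -0.98, Col12a1 -0.76, Col6a2 -0.72, Col5a2 -0.61, Col4a5 -0.60 and Col6a1 -0.58, and the higher ones were Col10a1 0.48, Col18a1 1.12, Col25a1 1.20 and Col7a1 2.33. In DKO Col5a3 -0.79, Col10a1 -0.78 and Col3a1 -0.67 were lower, and Col4a1 0.61, Col4a2 0.79, Col18a1 0.79, Col8a1 1.16, Col4a3 1.18, Col8a2 1.21, Col4a4 1.43 and Col2a1 2.72 were higher. With all libraries in the fit, Col4a3, Col4a5 and Col11a1 did not pass in MycKO, and Col1a1, Col4a5, Col5a2, Col8a2, Col10a1 and Col11a1 did not pass in MlxKO.

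What the loss of Mlx went with in cells that also lacked Myc was read from DKO against MycKO. In primary cells DKO against MycKO had 5 chains higher and 17 lower (median -0.27), against 10.6% and 11% of all genes and 21.5% in either direction. Of these, 2 chains were higher and 5 lower by a log2 fold change of at least 1, against 1.52% and 1.05%. The 5 that rose were Col2a1, Col5a2, Col8a2, Col11a1 and Col14a1, of which Col5a2 had the highest level per kilobase. The largest falls were Col25a1 (-1.81 ± 0.16), Col7a1 (-1.46 ± 0.083), Col15a1 (-1.15 ± 0.16), Col28a1 (-1.07 ± 0.14) and Col10a1 (-1.01 ± 0.089) on the log2 scale (highest adjusted p = 6.51e-05, limma). Col4a1, Col4a2, Col4a5 and Col4a6 were all lower in DKO than in MycKO (-0.42, -0.32, -0.72 and -0.61), and the libraries of Col4a2 overlapped. In immortalized cells DKO against MycKO had 12 chains higher and 7 lower (median 0.20), against 14.8% and 14.6% of all genes and 29.4% in either direction. Without WT library 4 in the fit, 12 were higher and 9 lower, Col4a1 and Col6a1 being added to the lower ones. By a log2 fold change of at least 1, 11 were higher and 4 lower, against 5.73% and 5.26%. Higher in DKO were Col1a1, Col2a1, Col3a1, Col4a3, Col4a4, Col4a5, Col4a6, Col5a2, Col8a2, Col10a1, Col11a1 and Col12a1. The lower ones were Col5a3, Col6a2, Col7a1, Col8a1, Col15a1, Col18a1 and Col25a1. Among these, Col2a1 differed by 3.93 ± 0.28, Col4a4 by 3.65 ± 0.34, Col10a1 by 3.02 ± 0.23 and Col3a1 by 1.28 ± 0.16 (adjusted p = 9.57e-07, 8.30e-06, 1.25e-06 and 8.73e-05, limma), and Col15a1 by -2.72 ± 0.22 (adjusted p = 2.74e-06).

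Whether Mlx loss went with like changes where Myc was present and where it was lost was tested as the interaction, that is DKO minus MycKO minus MlxKO plus WT. In primary cells 3 chains passed with a positive and 15 with a negative value (median -0.41), against 7.47% and 6.07% of all genes and 13.5% in either direction. Past 1 on the log2 scale were 2 positive and 4 negative values, against 2.6% and 1.3%. The positive ones were Col2a1, Col10a1 and Col11a1. For Col10a1 it was 1.03 ± 0.13 (adjusted p = 2.79e-05, limma): the difference with Mlx loss was -2.04 in cells with Myc and -1.01 in cells without Myc. For Col25a1 it was -2.34 ± 0.23 and for Col7a1 -1.36 ± 0.12 (adjusted p = 2.74e-06 and 7.64e-07). In immortalized cells 12 chains passed with a positive and 8 with a negative value (median 0.14), against 23.7% and 23.8% of all genes and 47.4% in either direction. Past 1 on the log2 scale were 12 positive and 5 negative values, against 11.3% and 13.5%. Scaled by library totals, the same counts were 12 and 8, the median of all genes moved to -0.18, and all genes split into 2325 positive and 3920 negative in place of 3047 and 3061. The largest values were Col2a1 (5.53 ± 0.40), Col4a4 (4.89 ± 0.49), Col4a3 (4.63 ± 0.72) and Col7a1 (-4.46 ± 0.62), with adjusted p = 1.32e-06, 1.55e-05, 3.54e-04 and 1.65e-04 (limma). For Col2a1 and Col4a4, Mlx loss went with lower levels in cells with Myc (-1.59 and -1.24) and with higher levels in cells without Myc (3.93 and 3.65). Without WT library 4 the counts were 12 and 8 as well, with values of 5.88 for Col2a1 and 5.41 for Col4a4.

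**Figure D5:**
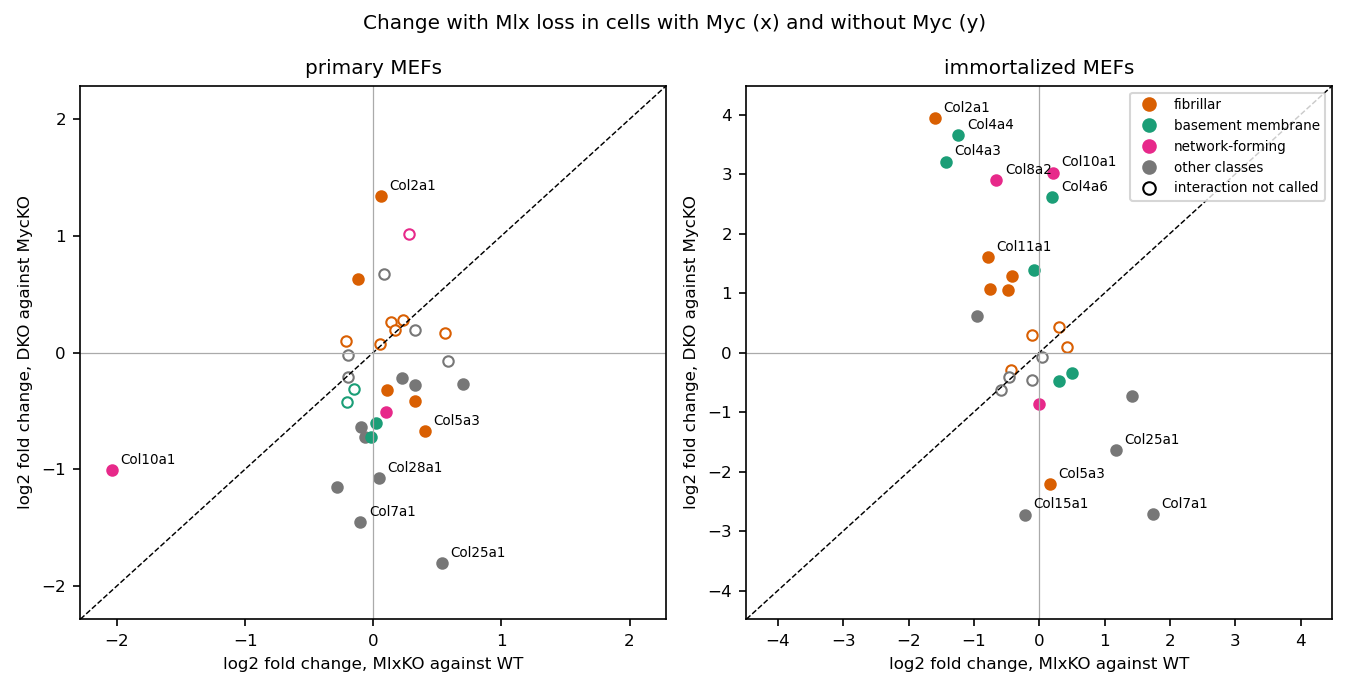
Log2 fold change with Mlx loss in cells with Myc (MlxKO against WT, horizontal axis) and in cells without Myc (DKO against MycKO, vertical axis) for each collagen chain tested, coloured by class, filled where the interaction passed the test, with the diagonal of equal change as a dashed line. In primary cells most filled points lie under the diagonal, and in immortalized cells Col2a1, Col4a3 and Col4a4 lie at the upper left and Col7a1 and Col25a1 at the lower right.

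Genes for the enzymes and chaperones that make, trim and hold collagen were described alongside the chains. Of 22 tested genes for modification and folding, 7 rose and 2 fell in primary MycKO, 1 rose and 5 fell in MlxKO, and 10 rose and 2 fell in DKO. The shares of all genes called were 42.3%, 8.88% and 49.5%, so that in MycKO and DKO the list was called about as often as all genes. P4ha2, a prolyl 4-hydroxylase subunit that stabilises the helix, stood at 136, 134 and 127 CPM in WT and 208, 198 and 206 in DKO (0.62 ± 0.068, adjusted p = 1.37e-06, limma), and P4ha3 at 76.5, 77.9 and 93.1 in WT and 133, 135 and 129 in MycKO (0.68 ± 0.072, adjusted p = 1.49e-06). Of 12 tested genes for cleavage and cross-linking, 8 rose and 1 fell in primary MycKO, 1 rose and 3 fell in MlxKO, and 9 rose and 1 fell in DKO. Loxl2, which cross-links type IV collagen, rose in MycKO and DKO (1.20 ± 0.074 and 1.22 ± 0.074, adjusted p = 5.30e-09 and 2.30e-09). Lox, which cross-links fibrils, went from 4591, 4537 and 5258 CPM in WT to 6715, 8079.9 and 6623 in MycKO and 9078, 9056 and 8427 in DKO (0.57 ± 0.09 and 0.89 ± 0.09, adjusted p = 7.82e-05 and 5.98e-07). Adamts2, which removes the N-propeptide of procollagen, rose in MycKO (1.05 ± 0.061, adjusted p = 3.23e-09), and Pcolce2, an enhancer of C-propeptide cleavage, fell in DKO (-1.16 ± 0.11, adjusted p = 2.77e-07).

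Of 7 tested proteoglycans that coat fibrils, 4 rose and 2 fell in primary MycKO, 4 rose in MlxKO, and 6 rose in DKO. Of all genes 42.3%, 8.88% and 49.5% were called in either direction in MycKO, MlxKO and DKO, beside these counts and those of the receptors and regulators below. Decorin (Dcn) rose in MycKO and DKO (1.08 ± 0.064 and 1.27 ± 0.064, adjusted p = 4.34e-09 and 3.57e-10, limma), as did fibromodulin, Fmod (0.93 ± 0.07 and 1.28 ± 0.07), and Ogn fell in MycKO (-1.71 ± 0.13, adjusted p = 4.94e-08). Of 8 collagen receptors and uptake genes, 6 rose and 1 fell in primary MycKO, 1 rose and 1 fell in MlxKO, and 5 rose and 1 fell in DKO. Itga11, the integrin subunit by which fibroblasts hold fibrillar collagen, rose in MycKO and DKO (1.38 ± 0.093 and 1.47 ± 0.093, adjusted p = 1.28e-08 and 3.97e-09), and Itga2, named after its values were seen, was the 1 that fell in MycKO (-1.06 ± 0.17, adjusted p = 9.45e-05). Of 12 regulators, 2 rose and 3 fell in primary MycKO, 2 fell in MlxKO, and 2 rose and 1 fell in DKO. The regulators were thus called about as often as all genes in MycKO and less often in DKO. Ccn2, a target of TGF-beta, rose in MycKO and DKO (0.59 ± 0.084 and 0.91 ± 0.084), and Scx, a tendon factor, fell in MycKO (-0.86 ± 0.15, adjusted p = 1.65e-04).

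The same lists were counted in immortalized cells. Of all genes, 48%, 38.9% and 18.9% were called there in MycKO, MlxKO and DKO, and the counts of these short lists are read as no more than counts. In the same order, modification and folding had 5 higher and 3 lower, 1 and 9, and 2 and 1. Cleavage and cross-linking had 3 and 3, 4 and 3, and 3 and 1. Proteoglycans had 1 and 4, 0 and 4, and 2 and 1, receptors 3 and 2, 2 and 4, and 2 and 0, and regulators 3 and 7, 2 and 4, and 1 and 1. Loxl3 rose in MycKO (3.14 ± 0.13, adjusted p = 1.34e-08, limma), and Lox fell in MlxKO and MycKO (-1.96 ± 0.15 and -0.89 ± 0.15, adjusted p = 1.02e-05 and 6.22e-04). Ogn fell in MycKO from 1049.7, 811 and 571 CPM in WT to 21.5, 24.5 and 27.0 (-4.96 ± 0.24, adjusted p = 4.01e-08). Sox5, a factor that acts with Sox9 on Col2a1 in cartilage, fell in MycKO and in DKO (-3.86 ± 0.21 and -1.04 ± 0.21, adjusted p = 7.57e-08 and 0.00524). Sox9 itself, named after its values were seen, fell in MycKO (-1.0 ± 0.15, adjusted p = 1.83e-04) and did not pass the test in DKO (0.21 ± 0.15, adjusted p = 0.316).

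Markers of other cells moved with genotype beside the collagen chains. In primary cells all 12 macrophage markers fell in MycKO and in DKO, where 21.9% and 25.5% of all genes were lower. The summed level of these markers was 341 to 667 CPM in WT, 365 to 453 in MlxKO, 58.6 to 88.3 in MycKO and 113 to 264 in DKO, against collagen sums of 44899 to 49102 CPM in WT. Of the fibroblast markers 6 of 9 rose and 0 fell in primary MycKO, against 20.4% and 21.9% of all genes, with sums of 14511 to 15635 CPM in WT and 17837 to 19634 in MycKO. In primary DKO 3 rose and 2 fell, against 24% and 25.5% of all genes, and the sums were 15945 to 17254 CPM. Endothelial markers summed to 14.1 to 15.5 CPM in primary WT, 3.57 to 4.9 in MlxKO, 5.43 to 9.03 in MycKO and 5.31 to 6.23 in DKO, below WT in all 3 knockouts. In immortalized cells they summed to 3.1 to 5.05 CPM in WT, 5.86 to 7.4 in MlxKO, 14.4 to 19.4 in MycKO and 7.69 to 9.0 in DKO, above WT in each knockout and with Cldn5, Emcn and Tie1 at 0 in all 4 genotypes. Of the 8 endothelial markers, 6 were below 1 CPM in every primary WT library and only 2 were tested in either table. Of the 2 tested in primary cells, 1 was lower in MlxKO, 1 lower in MycKO, and 1 higher and 1 lower in DKO. Of the 2 tested in immortalized cells, 1 was higher in each knockout. Primary epithelial markers summed to 9.76 to 12.7 CPM in WT, 5.65 to 7.09 in MlxKO, 5.43 to 7.87 in MycKO and 4.07 to 4.75 in DKO. Glial markers summed to 16.4 to 19.9 CPM in primary WT and 24.5 to 27.4 in MycKO, with 3 of 4 tested higher, against 20.4% of all genes. In immortalized cells the macrophage sums were 3.22 to 4.87 CPM in WT with 7 of 12 markers at 0, and skeletal muscle markers, of which 1 of 6 was tested, summed to 13.1 to 22.7 CPM in WT and 191 to 231 in MycKO with Myod1 and Myog at 0. The part of these cells in the collagen results was not tested.

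Over the 12 immortalized libraries, the genes whose log2(CPM + 1) ran most closely with Col10a1 were Clmp (Pearson r = 0.985), Erg (0.983), Slc5a6 (0.974), Cpm (0.974) and Sardh (0.972). Those closest to Col2a1 were Itga1 (0.984), Dhrs3 (0.983), Elovl1 (0.980), Fbxl7 (0.978) and Fgfrl1 (0.976). These values describe libraries that share genotype and depth and were picked as the highest of all genes. Erg, for one, stood at 20.8 CPM in WT and 0.45 CPM in MycKO on average, and Itga1, a collagen receptor subunit, at 40.1 CPM in WT and 96.2 CPM in DKO.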

How the data were processed

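Primary and SV40 T-antigen-immortalized MEFs of 4 genotypes were sequenced as directional poly-A libraries, 3 per genotype. Reads were aligned by the authors in CLC Genomics Workbench, on GRCm39. For each form of the cells they deposited a table of expression signal per gene that its headers call CPM. The deposited signal was in whole multiples of the worth of 1 read in each library, within a tolerance of 0.01, so whole reads could be recovered, and the columns did not sum to exactly the same total. The scaling method is not given in the sources used here, and the values were treated as normalized signal rather than as plain CPM, which the design had assumed.

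A gene was tested where 3 or more of the 12 libraries of a table reached 1 CPM. The test was limma (version 3.58.1, R 4.3.3) with an intensity trend on log2(CPM + 1). All 4 genotypes entered 1 fit, tests were 2-sided, and p-values were adjusted by Benjamini-Hochberg over all genes of the table. The script was tested on simulated data for primary MycKO against WT over 12906 genes, where limma called 95% of 100 genes changed 2-fold, 64.6% of 99 genes changed 1.5-fold and 0.0866% of unchanged genes. The simulation gave every gene the same relative spread between libraries beyond counting error and changed few genes. These rates therefore check the script and are not the power or error rate in the real libraries. On the recovered reads, edgeR (4.0.16) called 5565 genes and DESeq2 (1.42.0) 5587 in primary MycKO against WT, where limma called 5541. Other alternatives were the pseudocount, filters, scalings, robust variance, a GC and length correction and leaving out each library.

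Chains named in full had a mean of at least 100 CPM in some group, or passed the test against WT with a log2 fold change of at least 1, and of each list of other genes up to 4 with the lowest adjusted p were eligible. The members, lists and markers were chosen with earlier results of these data known. Levels per kilobase used exon lengths of GENCODE M39. Promoter sequences came from RefSeq on GRCm38.p6, and intervals or floors cover counting error only.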

Additional observations from a re-analysis of the deposited data

Results flagged for a closer look

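Mlx loss went with unlike changes where Myc was present and where it was lost for 18 collagen chains in primary and 20 in immortalized cells, by the interaction term of the limma fit, against 13.5% and 47.4% of all genes tested, and the values are on the log2 scale. The interaction is negative where the log2 fold change with Mlx loss was lower in cells without Myc than in cells with Myc. In primary cells it was negative for Col25a1 (-2.34), Col7a1 (-1.36), Col28a1 (-1.12), Col5a3 (-1.07), Col18a1 (-0.98), Col15a1 (-0.87), Col27a1 (-0.74), Col4a5 (-0.7), Col23a1 (-0.66), Col4a6 (-0.63), Col8a1 (-0.61), Col6a2 (-0.6), Col6a3 (-0.54), Col6a1 (-0.44) and Col5a1 (-0.42). It was positive for Col2a1 (1.28), Col10a1 (1.03) and Col11a1 (0.75). In immortalized cells it was positive for Col2a1 (5.53), Col4a4 (4.89), Col4a3 (4.63), Col8a2 (3.56), Col10a1 (2.82), Col4a6 (2.41), Col11a1 (2.39), Col1a1 (1.82), Col3a1 (1.7), Col12a1 (1.56), Col5a2 (1.54) and Col4a5 (1.47). It was negative for Col7a1 (-4.46), Col25a1 (-2.81), Col15a1 (-2.5), Col5a3 (-2.37), Col18a1 (-2.15), Col8a1 (-0.85), Col4a2 (-0.85) and Col4a1 (-0.78). Col2a1, Col10a1 and Col11a1 were positive and Col5a3, Col7a1, Col8a1, Col15a1, Col18a1 and Col25a1 negative in both tables, while Col4a5 and Col4a6 were negative in primary and positive in immortalized cells, and the difference between the tables was not tested.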

How the results depend on the processing

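The 260 log2 fold changes of the chains named in full were each checked under the alternatives. With 1 library left out, 2964 checks kept their side of the threshold, and their direction where they passed it, while 40 newly passed and 116 no longer did. Under the other alternatives 2639 checks kept both in that sense, 66 newly passed the threshold, 69 no longer did and 3 reversed. The reversed ones, all with a GC and length correction, were Col5a3 in primary MycKO at -0.21, Col6a3 in primary DKO at -0.14 and Col16a1 in immortalized MlxKO at -0.42. Asking for a log2 fold change of at least 1 left 8 chains in primary MycKO, 1 in MlxKO, 3 in DKO, 7 in DKO against MycKO, 6 in the interaction and 6 in immortalized DKO, by the stricter rule itself. With the GC and length correction 10 chains passed in primary MlxKO and 14 in immortalized MlxKO, and with DESeq2 15 in immortalized MlxKO. With only the groups compared in the fit, 4 passed in immortalized MlxKO and 7 in immortalized DKO, from fewer libraries. Leaving out 1 library gave 27 to 28 chains in primary MycKO, 3 (without WT library 1) to 12 (without MycKO library 10) in MlxKO, 26 to 27 in DKO, 18 to 24 in DKO against MycKO and 15 to 23 in the interaction. In immortalized cells it gave 15 to 21 in MycKO, 6 (without MlxKO library 7) to 15 (without WT library 4) in MlxKO, 7 (without DKO library 13) to 12 in DKO, 16 to 21 in DKO against MycKO and 17 to 20 in the interaction. Scaled by library totals, collagen sums were 1.31 and 1.32 times WT in primary MycKO and DKO. In immortalized cells that scaling made the MlxKO sums overlap WT through WT library 4, while the MycKO sums stayed below all WT libraries. Where no construction of the alternative is named, the cause was not tested. No paired analysis was possible because the columns carry library numbers that the labels do not tie to replicate numbers. Depth limits chains near the floor of 3 reads.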
